A study of Homo sapiens with 4 samples.

Results

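The aminoacyl-tRNA synthetases are the enzymes that load each amino acid onto its transfer RNA, and their transcripts were followed here in 769-P cells before and after induction of a short hairpin RNA against USP35. The members were chosen by gene name. Of 58735 genes in the tables, 36 were on the list, and each matched 1 gene: 20 cytosolic synthetases and 16 mitochondrial ones, whose names end in 2. To enter the test a gene needed an average of 1 FPKM or more (fragments counted per kilobase of gene and per unit of depth), which was met by 12029 genes, by all 20 cytosolic members and by 15 mitochondrial members. SARS2 did not meet it.

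A synthetase first joins its amino acid to AMP and then transfers it to the end of the matching tRNA, which the ribosome reads. The enzymes fall into class I and class II by the fold of their catalytic domain, and in animal cells several cytosolic ones sit in a multisynthetase complex with scaffold proteins. Mitochondria translate their own messages with a separate set of enzymes that are encoded in the nucleus and imported. EPRS carries the glutamyl and prolyl activities in a single protein, while GARS and KARS each supply the cytosol and the mitochondrion from 1 gene. Mitochondria have no glutaminyl enzyme of their own: EARS2 charges the glutamine tRNA with glutamate, and an amidotransferase of QRSL1, GATB and GATC converts it. Many cytosolic synthetase genes are known targets of ATF4, the transcription factor of the amino acid and integrated stress response, and WARS is a classic interferon-induced gene.

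769-P is a renal clear cell carcinoma line, described in the labels as wild type with a stably transfected, inducible USP35 hairpin, which control cells carry too. The 2 control libraries came from untreated cells and the 2 doxycycline libraries from cells given 1 µg/ml for 4 days. Doxycycline itself, an inhibitor of mitochondrial translation, and the hairpin cannot be told apart in this design, since no library with doxycycline and without the hairpin was analysed here. Whether replicates came from separate cultures or clones is not said in the labels. The p-values therefore weigh the difference between groups against how far libraries of a group lie apart, a spread that may be only technical.

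USP35, the targeted gene, stood at 3.31 and 4.19 FPKM in untreated cells and at 2.11 and 2.54 FPKM after doxycycline (log2 difference -0.51 ± 0.20 SE, limma adjusted p = 0.256). Recovered depth was between 16319640 and 18764546 reads per library. Mitochondrially encoded genes took 7.44% to 8.50% of reads in 3 libraries and 14.6% in doxycycline replicate 2. Of the renal markers, VIM, PAX8, PAX2, NNMT, KRT8 and KRT18 were expressed, while CA9 and NDUFA4L2 were at or under 0.09 FPKM. Fibroblast, endothelial and leukocyte markers reached at most 0.68 FPKM (COL1A1), and LUM, PECAM1, CDH5, KDR, CD3E and LYZ were at 0 in all 4 libraries.

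Per unit of gene length, the cytosolic synthetase transcripts were several times more abundant than the mitochondrial ones. The median level of the cytosolic genes was 47.9 and 40.4 FPKM in untreated cells and 46.8 and 32.5 FPKM in doxycycline replicates 1 and 2. The median of the 15 mitochondrial genes was 10.06, 9.53, 10.4 and 9.53 FPKM in the same order. The groups of genes overlapped at their edges. IARS2, the mitochondrial isoleucyl enzyme, had the third highest mean of the 36 at 95.8 FPKM, behind NARS, for asparagine, at 141.5 FPKM and AARS, for alanine, at 114.4 FPKM. At the other end, CARS, the cytosolic cysteinyl enzyme, averaged 5.83 FPKM and HARS, the cytosolic histidyl enzyme, 11.5 FPKM. The order of close neighbours is not resolved: EPRS (85.3 ± 4.97 FPKM, SD, n = 2) and IARS (87.1 ± 2.84 FPKM) in the controls differed by less than their spread.

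**Figure D1:**
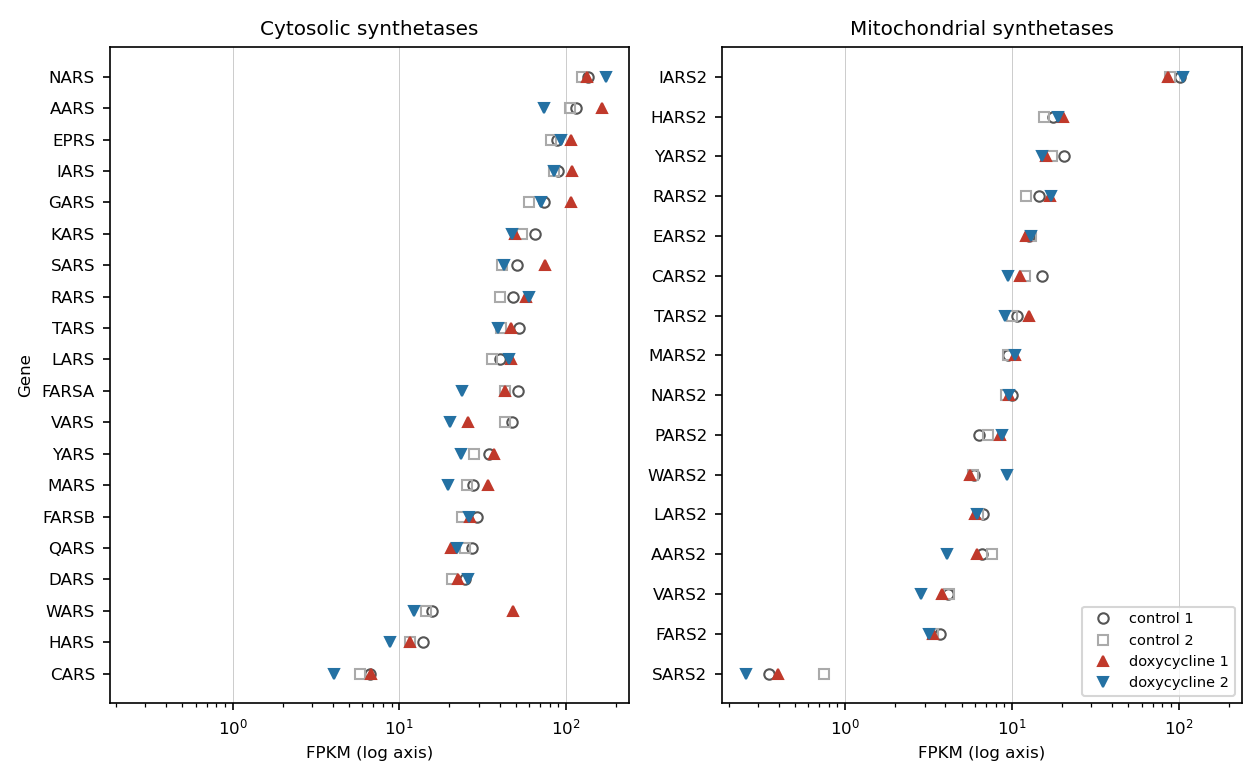
Level of each synthetase gene in FPKM (log axis) in the 4 libraries, with cytosolic genes on the left and mitochondrial genes on the right, ordered by mean. Each point is 1 library; WARS in doxycycline replicate 1 stands apart at 48.3 FPKM, and SARS2 is under 1 FPKM throughout.

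SARS2, the mitochondrial seryl enzyme, was the lowest member, at 0.35 and 0.75 FPKM in untreated cells and 0.40 and 0.25 FPKM after doxycycline. These values rest on 18, 42, 24 and 15 reads. In GENCODE release 29, 46.2% of its exonic bases are shared with AC011455.2 on the same strand, which was listed at 0 in every library, and 10.8% with MRPS12 on the opposite strand. Of VARS2, the mitochondrial valyl enzyme, 22.0% of exonic bases are shared with GTF2H4, which stood at no more than 0.02 FPKM. How reads in such shared bases were assigned is not given in the sources used here, and the levels of SARS2 and VARS2 are uncertain for that reason.

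Of the 35 synthetase genes tested, 0 rose and 0 fell by the test across all genes (limma-trend, adjusted p under 0.05). Over all 12029 genes 0% were called higher and 0% lower. At an unadjusted p under 0.05 the members numbered 1 lower (VARS) and 0 higher, against 11.9% of all genes lower and 6.47% higher. The median log2 difference, written as treated minus untreated on the log2(FPKM + 1) scale, was 0.0022 for the cytosolic genes and -0.0040 for the mitochondrial genes, beside -0.03 for all genes tested. Cytosolic members ranged from -0.95 to 0.67 and mitochondrial members from -0.42 to 0.33. Standard errors of single members lay between 0.17 and 0.58.

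VARS, the cytosolic valyl enzyme (ENSG00000204394, GRCh38 chromosome 6, 31777518 to 31795953, minus strand), lay lowest relative to control of all members. It stood at 47.6 and 42.99 FPKM in untreated cells and at 25.95 and 20.3 FPKM in doxycycline replicates 1 and 2. Both doxycycline libraries were well below both controls, on 4591, 4553, 2967 and 2257 reads. In bulk RNA, less transcript per cell and fewer cells holding it cannot be told apart. The means were 45.3 ± 3.25 and 23.1 ± 4.02 FPKM (SD, n = 2 each), a ratio of 0.51. The log2 difference was -0.95 ± 0.22 (SE), with a limma unadjusted p of 0.00516 and an adjusted p of 0.12. It passed with the replicate number as a block (adjusted p = 0.0372), without doxycycline replicate 1 (-1.12, adjusted p = 0.00245) and without doxycycline replicate 2 (-0.78, adjusted p = 0.0337). Without control replicate 1 or 2 the adjusted p was 0.932 and 0.631, the former the highest among 12 alternatives.

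The ratio of cytosolic to mitochondrial enzyme for the same amino acid, taken within a library from the deposited FPKM, is unaffected by a factor applied to the whole library, though quantile scaling, which is no such factor, can move it. VARS over VARS2 was 11.5 and 10.3 in the controls and 6.84 and 7.14 with doxycycline, lower in both doxycycline libraries. Among the 17 cytosolic to mitochondrial ratios that the members allow, 2 lay below both controls in each doxycycline library (VARS over VARS2 and HARS over HARS2), and 7 lay above. Of those 7, LARS over LARS2, for leucine, went from 6.01 and 5.74 to 7.82 and 7.27, and AARS over AARS2, for alanine, from 17.3 and 13.8 to 26.6 and 17.98. In 5 ratios (CARS, IARS, MARS, WARS and YARS over their mitochondrial forms) doxycycline replicate 1 lay above both controls and replicate 2 below both. The last 3 had at least 1 doxycycline library within the range of the controls. Ratios that share EPRS or FARS2 are not independent of each other, and the SARS ratio rests on the few reads of SARS2. No share over all genes was computed for ratios, and these counts are a description only.

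**Figure D2:**
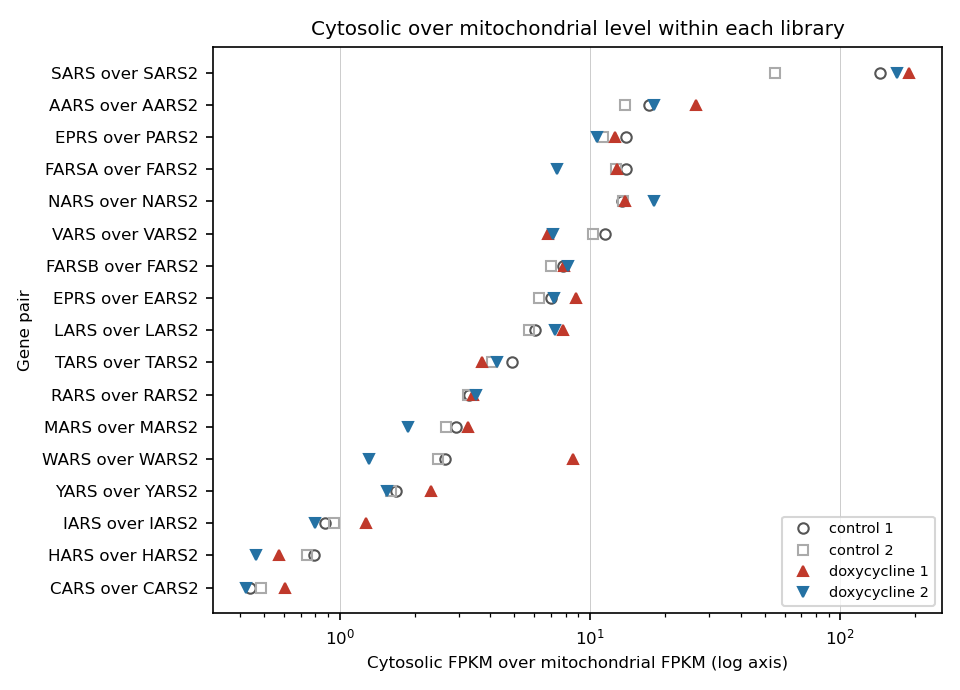
Cytosolic FPKM divided by mitochondrial FPKM within each library (log axis) for 17 gene pairs, 1 point per library. VARS over VARS2 and HARS over HARS2 are lower in both doxycycline libraries, and WARS over WARS2 is 8.56 in doxycycline replicate 1 and 1.31 in replicate 2 against 2.65 and 2.47 in the controls.

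The doxycycline libraries parted from each other over the cytosolic genes. In doxycycline replicate 1, 11 of 20 cytosolic genes lay above both controls and 3 below both, against 36.9% and 42.2% of all genes tested. In replicate 2, 5 lay above and 12 below, against 41.0% and 45.5%. The median difference from the control mean was 0.17 in replicate 1 and -0.23 in replicate 2, beside -0.02 and -0.03 for all genes. For the mitochondrial genes it was -0.06 and -0.0044. Doxycycline replicate 2 was also the library with 14.6% of its reads in mitochondrially encoded genes. With the deposited FPKM divided by the share of reads outside those genes, the cytosolic median of replicate 2 was -0.14. The median of all genes tested was then 0.05 in that library. The direction of the cytosolic median in each library was the same under each of the 5 scalings tried, with a range of 0.16 to 0.28 in replicate 1 and of -0.26 to -0.09 in replicate 2. The mitochondrial median changed sign in replicate 1 with library totals (0.03) and in replicate 2 with 3 scalings (0.09 without mitochondrially encoded genes, 0.0066 with median-of-ratios sizes and 0.08 with quantile scaling).

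The controls also differed from each other over these genes. Control replicate 2 was below control replicate 1 for 20 of 20 cytosolic genes and 10 of 15 mitochondrial genes, against 58.5% of all genes tested. The cytosolic count was 15 under quantile scaling and 20 under the other scalings, and the median difference between the controls was -0.21 for the cytosolic genes as deposited. No member tested differed by 1.5-fold or more between the controls (8.21% of all genes tested did). Between the doxycycline libraries 8 of 20 cytosolic and 2 of 15 mitochondrial members did (32.0% of all genes tested). SARS2, which was not tested, stood at 0.35 and 0.75 FPKM in the controls.

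**Figure D3:**
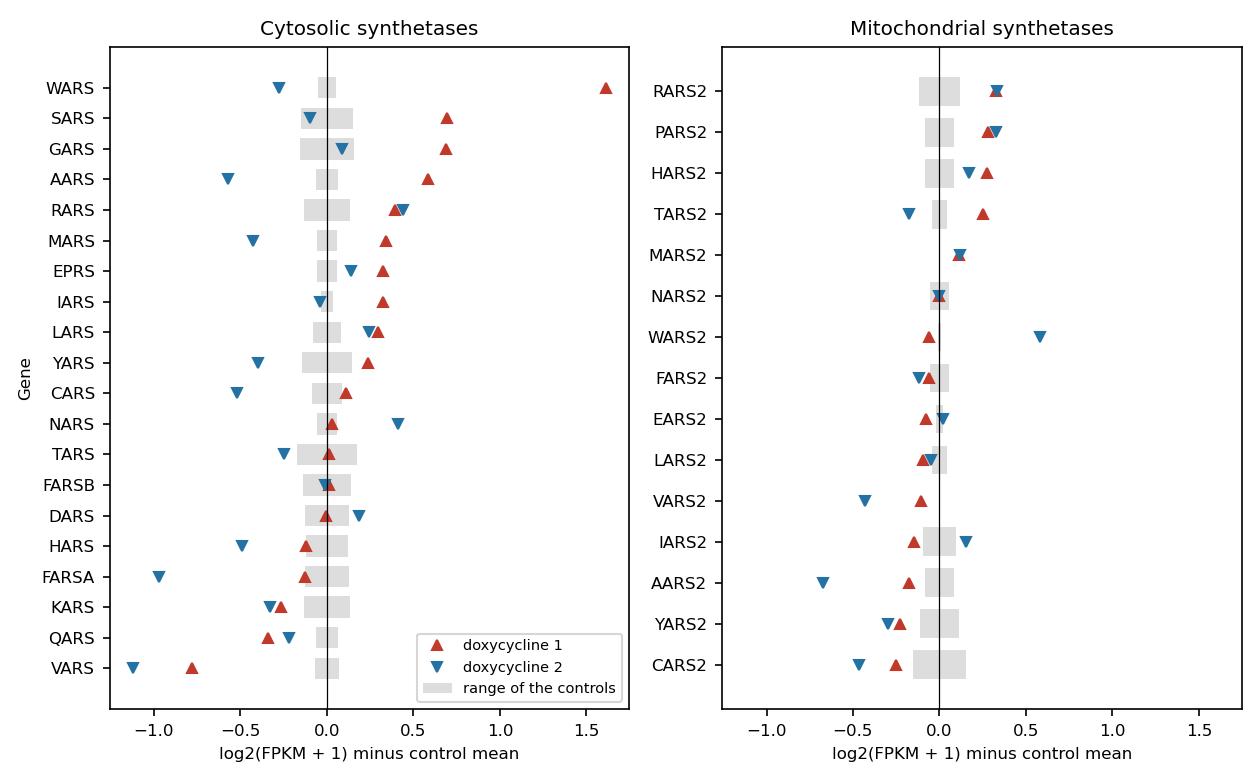
Difference of each doxycycline library from the control mean on the log2(FPKM + 1) scale for the 35 genes tested, with the range of the controls as a grey bar. Triangles pointing up are doxycycline replicate 1 and pointing down replicate 2. On opposite sides of 0 and outside the grey bar lie those of WARS, AARS, MARS, YARS, CARS, IARS, TARS2, WARS2 and IARS2.

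For 6 cytosolic genes, doxycycline replicate 1 lay above both controls and replicate 2 below both: AARS, CARS, IARS, MARS, WARS and YARS. Among all genes tested 8.71% had this pattern, and among the mitochondrial members 1 did (TARS2). IARS left it under 3 scalings (without mitochondrially encoded genes, median-of-ratios sizes and quantile), and the other 5 kept it under all 5. WARS, the tryptophanyl enzyme (ENSG00000140105, chromosome 14, 100333788 to 100376805, minus strand), had the widest gap. It stood at 15.7 and 14.5 FPKM in untreated cells, 48.3 FPKM in doxycycline replicate 1 and, in replicate 2, 12.3 FPKM. Doxycycline replicate 1 was 3.19 times the control mean and 3.93 times replicate 2, while the controls differed by 1.08 times. The log2 difference over both libraries was 0.67 ± 0.58 (SE, limma adjusted p = 0.562). Without doxycycline replicate 2 it was 1.61 (adjusted p = 2.64e-04, where 4.95% of all genes were called higher), and without replicate 1 it was -0.28 (adjusted p = 0.285). Over 12 alternatives the adjusted p ran from 2.64e-04 to 0.962.

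Interferon-inducible genes were also high in doxycycline replicate 1. Of 15 such genes, tested or not, 15 lay above both controls in doxycycline replicate 1 (36.9% of all genes tested did), and in replicate 2 there were 9 above and 4 below both (41.0% and 45.5%). The test took in 12 of them, with a median difference of 4.11 in replicate 1 and of 0.56 in replicate 2. OAS2, IFITM1 and CXCL10, 3 of the 12, averaged under 1 FPKM in the controls and entered only through the doxycycline libraries, so their place above the controls was fixed by the filter. Their summed level was 103.1 and 105.6 FPKM in untreated cells, 1213 FPKM in replicate 1 and, in replicate 2, 173 FPKM. GBP2, an interferon-induced GTPase, stood at 1.84 and 1.87 FPKM in untreated cells and at 4.03 and 5.51 FPKM after doxycycline. By limma 0 of the 12 rose and 0 fell at an adjusted p under 0.05, and 4 were higher and 0 lower at an unadjusted p under 0.05 (6.47% and 11.9% of all genes). Whether the interferon genes account for the level of WARS was not tested.

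The windows before the start sites of WARS are shown because this is the member with the widest gap between the doxycycline libraries. RefSeq (GRCh38.p14) lists 2 start sites, and the 250 bases before each were searched on both strands for an interferon-stimulated response element (ISRE: GAAA, any 2 bases, GAAA) and a gamma-activated site (GAS: TTCNNNGAA). The downstream window (chr14:100375348-100375597, minus strand) held 1 match to each, and the upstream window (chr14:100376328-100376577, minus strand) held none of either. Matches are in capitals, the GAS beginning at -142 and the ISRE at -55 from the start.
WARS downstream start: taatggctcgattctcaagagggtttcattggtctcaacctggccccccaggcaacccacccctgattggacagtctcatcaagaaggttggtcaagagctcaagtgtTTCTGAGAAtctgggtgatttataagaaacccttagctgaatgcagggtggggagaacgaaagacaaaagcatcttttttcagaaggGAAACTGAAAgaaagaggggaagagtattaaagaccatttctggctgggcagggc
WARS upstream start: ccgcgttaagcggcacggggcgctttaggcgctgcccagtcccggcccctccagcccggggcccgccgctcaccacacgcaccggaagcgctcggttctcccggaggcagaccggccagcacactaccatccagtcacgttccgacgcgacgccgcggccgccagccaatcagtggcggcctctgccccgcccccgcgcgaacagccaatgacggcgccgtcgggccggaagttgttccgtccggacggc
Over 35114 windows of the same length, 3.02% held an ISRE match and 6.57% a GAS match. By gene, the ISRE letters were in 1 of 16 cytosolic members (WARS) and 1 of 14 mitochondrial members (EARS2), and in 3.71% of 27303 genes. The GAS letters were in 2 cytosolic members (WARS and TARS) and 2 mitochondrial members (PARS2 and WARS2), and in 8.09% of all genes. Of the members other than WARS with either match, EARS2 and WARS2 were below both controls in doxycycline replicate 1. PARS2 was above both there, and TARS lay between them. A match is a run of letters and was not tested as a binding site. WARS also shares 6.06% of its exonic bases with AL157871.4 and 4.51% with WDR25 on the opposite strand. AL157871.4 was listed at 0 in all 4 libraries, and WDR25 was highest in doxycycline replicate 1, at 2.02 FPKM.

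AARS, the alanyl enzyme (ENSG00000090861, chromosome 16, 70252295 to 70289543, minus strand), stood at 114.6 and 104.96 FPKM in untreated cells, 165 FPKM in doxycycline replicate 1 and, in replicate 2, 73.3 FPKM. Replicate 1 was 2.25 times replicate 2, and the libraries cancelled in the fit (log2 difference 0.0037 ± 0.40 SE, limma adjusted p = 0.997). MARS, the methionyl enzyme of the multisynthetase complex, stood at 27.8 and 25.5 FPKM in untreated cells, 34.0 FPKM in replicate 1 and, in replicate 2, 19.5 FPKM. As for AARS, the controls lay between the doxycycline libraries. MARS shares 5.05% of its exonic bases with DDIT3, on the opposite strand, a stress-induced ATF4 target that stood at 9.21, 10.8, 39.2 and 8.23 FPKM.

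YARS, the tyrosyl enzyme, stood at 34.6 and 28.2 FPKM in untreated cells and at 37.0 and 23.5 FPKM after doxycycline. CARS stood at 6.66 and 5.82 FPKM and at 6.81 and 4.04 FPKM. In both genes replicate 1 was just above the higher control and replicate 2 below the lower one. Without doxycycline replicate 1, CARS had a log2 difference of -0.52 (limma adjusted p = 0.0388, with a range of 0.0388 to 0.99 over 12 alternatives). IARS, the isoleucyl enzyme of the complex, stood at 89.1 and 85.1 FPKM in untreated cells, 109.2 FPKM in replicate 1 and, in replicate 2, 84.5 FPKM, the last 0.97 times the control mean.

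GARS, the glycyl enzyme of both compartments, was higher in replicate 1 alone, at 74.0 and 59.6 FPKM in untreated cells and 107.7 and 70.5 FPKM after doxycycline. SARS, the cytosolic seryl enzyme, named after its values were seen, had the same shape, at 50.7 and 41.1 FPKM in untreated cells and 74.4 and 42.6 FPKM after doxycycline. Replicate 2 fell within the range of the controls for both genes. The fitted differences were 0.39 ± 0.29 for GARS and 0.30 ± 0.32 for SARS (SE, limma adjusted p = 0.50 and 0.635).

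ATF4 targets outside the synthetases, in a list that also holds ATF4, had a like order of library medians. Of these 30 genes, tested or not, 25 lay above both controls in doxycycline replicate 1 and 3 below both (36.9% and 42.2% of all genes tested). In replicate 2, 8 lay above both and 17 below both (41.0% and 45.5%). The test took in 27, of which SLC1A4 averaged under 1 FPKM in the controls and entered only through the doxycycline libraries. The median difference of the 27 was 0.66 in replicate 1 and -0.23 in replicate 2. Of them, 11 lay above both controls in replicate 1 and below both in replicate 2 (8.71% of all genes). Another 7 lay above both controls in both doxycycline libraries and 2 below (24.3% and 28.9%). The summed level of all 30 genes, ATF4 included, was 914 and 793 FPKM in untreated cells, 1489 FPKM in replicate 1 and, in replicate 2, 713 FPKM. For the 20 cytosolic synthetases the sum was 1038, 909, 1173 and 915 FPKM. ATF4 itself, whose protein is mainly set by translation, stood at 125 and 97.7 FPKM in untreated cells, 140.7 FPKM in replicate 1 and, in replicate 2, 62.7 FPKM. By limma 0 of 27 rose and 0 fell at an adjusted p under 0.05, and 4 were higher and 0 lower at an unadjusted p under 0.05, where 6.47% and 11.9% of all genes were. The lowest p were those of SLC7A11, the cystine importer, with a difference of 1.08 (limma adjusted p = 0.0696), and of NUPR1, a stress-induced chromatin protein, with 0.87 (adjusted p = 0.112). SLC7A11 and NUPR1 lay above both controls in each doxycycline library. Whether ATF4 activity accounts for the synthetase levels was not tested.

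**Figure D4:**
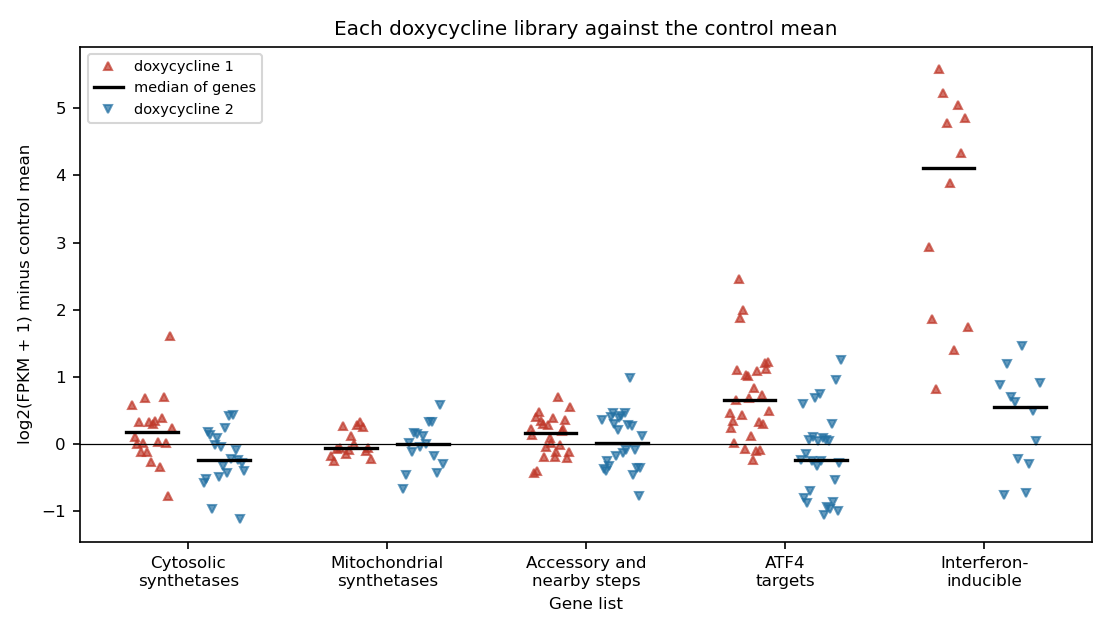
Difference of each doxycycline library from the control mean on the log2(FPKM + 1) scale for 5 gene lists, with 1 point per gene tested and a black line at the median. The cytosolic synthetases have medians of 0.17 and -0.23 in doxycycline replicates 1 and 2. Those of the ATF4 targets, a list that also holds ATF4, are 0.66 and -0.23, and those of the interferon-inducible genes 4.11 and 0.56.

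The start sites of the synthetases were searched for the composite element bound by C/EBP and ATF4 (CARE, TGATGNAA, both strands) because of this shared order. RefSeq windows were matched for 30 of the 36 members. The element was in at least 1 window of 3 of 16 cytosolic genes (AARS, GARS and IARS) and of 1 of 14 mitochondrial genes (YARS2), against 3.89% of 27303 genes. The window of IARS (chr9:92293698-92293947, minus strand) is given as an example with the match in capitals, beginning at -13 from the start. In GARS the match begins at -33 from the downstream of 2 start sites.
IARS: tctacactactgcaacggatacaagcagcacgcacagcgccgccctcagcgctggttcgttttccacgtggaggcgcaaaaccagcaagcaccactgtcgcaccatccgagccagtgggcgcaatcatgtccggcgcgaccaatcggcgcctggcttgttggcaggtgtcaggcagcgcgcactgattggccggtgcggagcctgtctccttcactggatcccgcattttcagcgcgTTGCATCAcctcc
The windows of WARS, CARS, MARS and SARS held no match, and no window was matched for YARS. YARS2, which held 1, was lower in both doxycycline libraries. The letters do not show which factor, if any, was bound.

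RARS, LARS and EPRS, all in the multisynthetase complex, were above both controls in both doxycycline libraries. Among all genes tested 24.3% had this pattern. RARS, the arginyl enzyme (ENSG00000113643, chromosome 5, 168486445 to 168519299, plus strand), stood at 48.2 and 39.98 FPKM in untreated cells and at 57.9 and 59.9 FPKM after doxycycline. The means were 44.1 ± 5.79 and 58.9 ± 1.38 FPKM (SD, n = 2 each), and the difference of 0.42 ± 0.22 (SE) did not pass (limma adjusted p = 0.357). LARS and EPRS had ratios of 1.21 and 1.18.

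KARS and QARS, also in the complex, and VARS were below both controls in both doxycycline libraries (28.9% of all genes tested). KARS, which charges lysine in both compartments, stood at 65.5 and 54.3 FPKM in untreated cells and 49.5 and 47.2 FPKM after doxycycline. It shares 4.33% of its exonic bases with TERF2IP on the opposite strand, which was at 12.2, 11.2, 19.0 and 18.4 FPKM. QARS, the cytosolic glutaminyl enzyme, stood at 27.3 and 24.9 FPKM and at 20.4 and 22.2 FPKM. The differences were -0.30 ± 0.22 for KARS and -0.28 ± 0.19 for QARS (SE, limma adjusted p = 0.497 and 0.475). Members of the complex thus lay on both sides of the controls: of its 8 synthetases 3 were higher and 2 lower in both doxycycline libraries. DARS, for aspartate, had a doxycycline library within the range of the controls, and IARS and MARS parted between libraries. The median difference was 0.11 for the 8 members of the complex and -0.04 for the other 12 cytosolic genes. By class it was -0.04 for the 9 cytosolic genes of class I and 0.0022 for the 10 of class II, with EPRS set apart.

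FARSA, the alpha subunit of the cytosolic phenylalanyl enzyme, stood at 51.7 and 43.1 FPKM in untreated cells, 43.2 FPKM in doxycycline replicate 1 and, in replicate 2, 23.6 FPKM. Its partner subunit FARSB stood at 29.1, 23.8, 26.5 and 26.1 FPKM. FARSA was thus lowest in replicate 2, where FARSB lay within the range of the controls. Without doxycycline replicate 1, FARSA had a difference of -0.97 (limma adjusted p = 0.00657, over 12 alternatives 0.00657 to 0.964), against -0.55 ± 0.32 (SE, adjusted p = 0.408) over all libraries. In that fit 19.9% of all genes were called lower and 12.9% higher, and of the members VARS, FARSA, CARS and AARS2 were called lower and WARS2 higher. Without doxycycline replicate 2, 8.39% of all genes were called lower, and of the members VARS was. With the replicate block 4.84% were called lower and 1.68% higher, and again VARS was the 1 member called. TARS, NARS and DARS, the remaining cytosolic genes, had ratios of 0.92, 1.18 and 1.06 and no call in any of these fits.

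Members of the mitochondrial set lay on both sides of the controls. Of the 15 tested, 4 lay above both controls in both doxycycline libraries (HARS2, MARS2, PARS2 and RARS2), and 6 below (AARS2, CARS2, FARS2, LARS2, VARS2 and YARS2). Among all genes tested 24.3% and 28.9% had these patterns. The 4 higher genes kept this pattern under all 5 scalings. Of the 6 lower genes CARS2 and YARS2 did, while FARS2 left it under 3, LARS2 under 4, and AARS2 and VARS2 with library totals.

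RARS2, the mitochondrial arginyl enzyme, stood at 14.6 and 12.2 FPKM in untreated cells and at 17.0 and 17.1 FPKM after doxycycline. PARS2, the mitochondrial prolyl enzyme, stood at 6.37 and 7.24 FPKM and at 8.48 and 8.77 FPKM. In both genes the doxycycline libraries lay close together and above the controls, with ratios of 1.27. The differences were 0.33 ± 0.19 and 0.30 ± 0.18 (SE, limma adjusted p = 0.407 and 0.402). MARS2, the mitochondrial methionyl enzyme, had nearly equal levels within each group and a ratio of 1.09.

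AARS2, the mitochondrial alanyl enzyme, stood at 6.64 and 7.60 FPKM in untreated cells, 6.19 FPKM in doxycycline replicate 1 and, in replicate 2, 4.08 FPKM. The difference was -0.42 ± 0.23 (SE, limma adjusted p = 0.369), and without doxycycline replicate 1 it was -0.68 (adjusted p = 0.0125, over 12 alternatives 0.0125 to 0.962). CARS2, the mitochondrial cysteinyl enzyme, stood at 15.2 and 12.0 FPKM in untreated cells and 11.2 and 9.53 FPKM after doxycycline. YARS2, the mitochondrial tyrosyl enzyme, stood at 20.6 and 17.5 FPKM and at 16.0 and 15.2 FPKM. VARS2 stood at 4.16 and 4.19 FPKM and at 3.80 and 2.84 FPKM. For these 4 genes replicate 2 was the lowest of the 4 libraries.

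WARS2, the mitochondrial tryptophanyl enzyme, had its higher value in the other doxycycline library than WARS did. It stood at 5.95 and 5.88 FPKM in untreated cells, 5.64 FPKM in doxycycline replicate 1 and, in replicate 2, 9.35 FPKM. Without doxycycline replicate 1 the difference was 0.58 (limma adjusted p = 0.0227, over 12 alternatives 0.0227 to 0.968), and over all libraries it was 0.26 ± 0.25 (SE, adjusted p = 0.595). IARS2 had the same order, at 102.0 and 89.2 FPKM in untreated cells, 85.97 FPKM in replicate 1 and, in replicate 2, 106.0 FPKM, a pattern that 9.22% of all genes tested had. TARS2, the mitochondrial threonyl enzyme, had the order of the 6 cytosolic genes, at 10.7 and 10.1 FPKM in untreated cells, 12.6 FPKM in replicate 1 and, in replicate 2, 9.11 FPKM. EARS2, NARS2, FARS2 and LARS2 had ratios of 0.98, 0.996, 0.92 and 0.94.

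HARS and HARS2 are neighbours that are transcribed away from each other. HARS (chromosome 5, 140673904 to 140691862, minus strand) stood at 13.97 and 11.6 FPKM in untreated cells and 11.6 and 8.78 FPKM after doxycycline. HARS2 (140691426 to 140699318, plus strand) stood at 17.7 and 15.6 FPKM and at 20.3 and 18.9 FPKM. HARS over HARS2 was 0.79 and 0.74 in the controls and 0.57 and 0.47 with doxycycline, lower in both doxycycline libraries. In replicate 1 HARS was level with the lower control, while HARS2 lay above both controls in both libraries. The differences were -0.31 ± 0.22 for HARS and 0.22 ± 0.19 for HARS2 (SE, limma adjusted p = 0.484 and 0.562). Because exons of the pair share 437 bases and strandedness is unknown, reads in that stretch cannot be told apart. HARS2 also shares 4.07% of its exonic bases with ZMAT2 on the same strand, which was at 42.7, 37.9, 45.4 and 53.0 FPKM. HARS shares 2.81% with WDR55 on the opposite strand, which was at 9.25, 8.72, 7.80 and 7.52 FPKM. The stretch between the start sites that RefSeq gives them is shown because both genes begin at its edges (chr5:140691371-140691454, 84 bases, plus strand).
HARS and HARS2: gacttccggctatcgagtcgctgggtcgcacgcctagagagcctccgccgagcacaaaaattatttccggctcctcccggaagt
It held no match to the ISRE, GAS or CARE letters on either strand.

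Of 26 genes for accessory and neighbouring steps of tRNA charging, 24 were tested. By limma 0 rose and 0 fell at an adjusted p under 0.05, and 2 were higher and 0 lower at an unadjusted p under 0.05 (6.47% and 11.9% of all genes). Their median difference was 0.08. Among them 8 were higher and 6 lower in both doxycycline libraries, near the 24.3% and 28.9% of all genes tested. SEPSECS, which completes selenocysteine on its tRNA, stood at 2.49 and 2.76 FPKM in untreated cells and 4.90 and 6.14 FPKM after doxycycline (difference 0.84 ± 0.19 SE, limma adjusted p = 0.111). QRSL1, the catalytic subunit of the mitochondrial amidotransferase, stood at 5.22 and 4.98 FPKM and at 7.01 and 7.43 FPKM (0.43 ± 0.17 SE, adjusted p = 0.262). Of the scaffold genes of the multisynthetase complex, AIMP1 (20.8, 18.4, 23.1 and 25.4 FPKM) and EEF1E1 (8.32, 5.07, 8.53 and 9.41 FPKM) were higher in both doxycycline libraries, while AIMP2 (29.1, 25.9, 30.2 and 20.97 FPKM) parted between them.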

How the data were processed

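RNA sequencing gave 1 table of 58735 genes for each of 4 libraries, grouped by their labels. The authors deposited FPKM, per the file headers. The submitters' processing notes list featureCounts 1.5.0-p3, HISAT2 2.0.5 and limma without saying what each did. The build, strandedness and library size used are not given in the sources used here, but every gene's coordinates matched GENCODE release 29 (GRCh38). Whole reads were recovered for 100% of genes (tolerance 0.02 reads); the floor of 3 reads for a 2 kb gene was 0.08 to 0.095 FPKM, for counting error only. Differences were tested two-sided with limma-trend (limma 3.58.1, R 4.3.3) on log2(FPKM + 1), which understates low genes, over 12029 genes averaging at least 1 FPKM, without covariates. P-values were adjusted by Benjamini-Hochberg across them. An exact permutation test of 2 against 2 cannot go below p = 0.333. The alternatives were a pseudocount of 0.1, 2 other filters, 2 rescalings, limma-voom on recovered reads with 2 kinds of library size, the replicate block and leaving out each library. Fits were tested on simulated data, drawn with the same extra spread beyond counting error for every gene and both groups. There the FPKM fit made more false calls than its threshold allows and the voom fit did not. In the real libraries 32.0% of all genes lay 1.5-fold or more apart between doxycycline replicates and 8.21% between controls. The simulation therefore does not show how often either fit makes false calls here. Python 3.11.15, pandas 2.3.3 and numpy 2.4.6 handled the tables.

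Members and lists were chosen with earlier results of these data known. Values in every library are given for the 6 cytosolic and 6 mitochondrial members of lowest p, for WARS, GARS, KARS, QARS, HARS and HARS2, and for members whose doxycycline libraries lay on opposite sides of both controls. From each other list the 2 genes of lowest p are named, except 1 that is not reported here. SARS, FARSB, SARS2, DDIT3, ATF4, AIMP1, AIMP2 and EEF1E1, and the genes that overlap members or entered the test only through doxycycline libraries, were named after their values were seen.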

Additional observations from a re-analysis of the deposited data

How the results depend on the processing

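Over all genes the number called higher and lower was 0 and 0, but 42 and 219 among genes averaging 5 FPKM or more, 28 and 170 under voom with median-of-ratios sizes, and 202 and 582 with the replicate block. Leaving out 1 library gave 0 to 1553 higher and 0 to 2389 lower, the highest without doxycycline replicate 1; without replicate 2 the counts were 596 and 1009. In these fits the lone library is assumed to vary like the other group. Among cytosolic members the block gave 1 lower (VARS), and leaving out 1 library 0 to 1 higher and 0 to 3 lower. Among mitochondrial members leaving out 1 library gave 0 to 1 higher and 0 to 1 lower. Replicate numbers are not tied to shared cultures by the labels, and same-numbered deviations had a correlation of 0.21 over 2 pairs; the block is therefore an alternative and not a paired design. The mitochondrial median of -0.0040 was 0.063 with quantile scaling, 0.043 with voom on library totals and -0.062 to 0.053 with 1 library left out. The cytosolic median of 0.0022 ranged from -0.23 to 0.17 with 1 library left out.

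Of 23 named members, 23 kept their direction and side of the threshold without a filter, with a pseudocount of 0.1, without mitochondrially encoded genes and under voom with median-of-ratios sizes. VARS2 was not among the genes averaging 5 FPKM or more. MARS turned to 0.068 and YARS to 0.027 with quantile scaling, and MARS to 0.0021 with voom on library totals. With 1 library left out, members that changed sign ranged from -0.57 to 0.58 for AARS, -0.52 to 0.11 for CARS, -0.042 to 0.32 for IARS, -0.43 to 0.34 for MARS, -0.28 to 1.61 for WARS, -0.40 to 0.24 for YARS, -0.15 to 0.15 for IARS2, -0.17 to 0.25 for TARS2 and -0.058 to 0.58 for WARS2. Outside the named members, SARS ranged from -0.10 to 0.69 over the 12 alternatives (below 0 without doxycycline replicate 1), and DARS, TARS, FARSB, EARS2 and NARS2 also changed sign under at least 1. The cause of these changes was not tested. Depth was thinnest for SARS2, which rests on 15 to 42 reads.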
